A study of Homo sapiens with 10 samples.

Results

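The ZBTB genes encode transcription factors that carry a BTB/POZ domain at one end and C2H2 zinc fingers at the other. All entries of the deposited expression table whose gene name is ZBTB followed by a number and at most one letter from A to C were taken, which gave 50 of 64940 entries and 40 gene names. In these proteins the zinc fingers contact DNA, and the BTB domain pairs the proteins with each other and recruits corepressors such as NCOR1 and BCOR, or the ubiquitin ligase scaffold CUL3. The family is best known from blood cells, where several members set lineage choice, and ZBTB16 (PLZF) is known in the male germline for its role in keeping spermatogonial stem cells. Other members read methylated CpG, bind telomeric repeats or act on the p53 pathway.

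RNA sequencing of H9, a human embryonic stem cell (hESC) line, was analysed in 2 control libraries and 2 libraries with DAZL overexpression (oeDAZL). DAZL is an RNA-binding protein of germ cells, and the study asked what it does in human primordial germ cell-like cells (hPGCLCs), which are made from hESCs in culture. The control libraries carry the genotype wt, the cell type SD cells and a spontaneous differentiation treatment in their labels, while the oeDAZL libraries are labelled hPGCLCs, and the design text of the series names PGCLCs in both groups. The type of culture and DAZL therefore cannot be told apart where the labels hold. The study's methods describe a lentivirus that expresses DAZL joined to GFP from a vector, and differentiation with BMP4 and BMP8a. For the miRNA libraries they also describe a control virus with GFP and collection of the cells by sorting. The section on RNA sequencing does not say whether its control cells received that virus or were sorted. Nothing in the labels says that the libraries of a group came from separate cultures, so the p-values below measure the spread between these libraries, which may be technical. Knockdown samples with miRNA data belong to the same series and were not analysed here.

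Expression is given as TPM, transcript abundance per fixed library total, which accounts for transcript length and allows levels to be compared between genes, but which keeps no read depth. DAZL was at 0 and 0.0333 TPM in control against 102 and 101 TPM in oeDAZL, as the labels state. Among PGC markers, TFAP2C was at 44.3 to 53.9 TPM, KIT at 6.23 to 7.70 TPM and SOX17 at 2.52 to 3.35 TPM, whereas NANOS3 was at 0.732 to 1.66 TPM and DDX4 was listed at 0 in all 4 libraries. PGC markers other than DAZL summed to 71.2 and 63.8 TPM in control and to 58.3 and 63.7 TPM in oeDAZL, mostly from TFAP2C. Of 7 tested PGC markers, DAZL alone passed an unadjusted p of 0.05 in limma, an outcome that its overexpression fixed in advance. The other 6 did not pass and had negative log2 fold changes, as 65.3% of all tested genes had. This threshold was passed by 5.02% of all tested genes as higher and by 15.2% as lower. Sums of mesoderm and mesenchyme markers were 2303 and 2199 TPM in control against 1955 and 1982 TPM in oeDAZL, with 1 of 7 higher and 3 of 7 lower at that threshold, and those of neural markers were 436.6 and 576.9 against 689.1 and 634.6 TPM, with 1 of 3 tested markers higher and 1 lower. Amnion and trophoblast markers summed to 1008 and 1025 TPM in control and 1053 and 1042 TPM in oeDAZL (1 of 7 higher, 3 of 7 lower), pluripotency markers to 545.5 and 494.6 against 497.1 and 476.7 TPM (2 of 5 tested higher, 0 lower), and endoderm markers to 65.9 and 39.7 against 35.5 and 35.8 TPM (0 of 5 higher, 1 of 5 lower). KRT7, at 567 to 675 TPM, made up most of the amnion and trophoblast sums. There GATA2 was the higher marker, and ISL1, CGA and CDX2 were the lower. In the mesoderm and mesenchyme list HAND1 was higher, and TBXT, COL1A1 and COL3A1 were lower. AFP was the lower endoderm marker, at 36.3 and 13.1 TPM in control against 8.91 and 11.6 TPM in oeDAZL. NES and TUBB3 made up nearly all of the neural sums. NES was the higher marker, at 253 and 347 TPM in control against 440 and 409 TPM in oeDAZL. PAX6 was the lower, at 3.83 and 1.14 against 0.0967 and 0.558 TPM. LIN28A, at 401 to 476 TPM, made up most of the pluripotency sums. The higher markers there were POU5F1 and TDGF1 (log2 fold changes 0.79 and 0.82), and the other 3 tested had negative values. Of the 5 blood cell markers, RUNX1 lay between 33.3 and 34.5 TPM in every library, whereas PTPRC, CD34, GATA1 and SPI1 did not exceed 0.401 TPM in any. In these bulk libraries, fewer cells of a type and less RNA per cell cannot be told apart, and the part that the marker changes have in the values below was not tested.

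The study is about miRNAs of the let-7 family, so the ZBTB transcripts that carry a complete let-7 site are shown first. The mature sequence of let-7a-5p, from RefSeq on GRCh38.p14, has its seed, bases 2 to 8, in capitals, and 9 let-7 and miR-98 sequences share that seed. An 8mer site is the complement of the seed followed by A, spelled CTACCTCA and read on the strand of the transcript only. It was found in the longest annotated 3′UTR of 5 of 40 ZBTB genes, or 12.5%, against 780 of 19248 genes with a 3′UTR, or 4.05%. Each site is printed with 11 bases on either side, read 5′ to 3′ on the strand of the gene, with the 8mer in capitals.
let-7a-5p: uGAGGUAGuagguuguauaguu
ZBTB16: ctagttaatgtCTACCTCAgcacctcctct
ZBTB20: cttcccatgtgCTACCTCAtgtgtttctct
ZBTB37: aagcaatcctcCTACCTCAtcctcccaagt
ZBTB39: agtagctcataCTACCTCAccctgctcagg
ZBTB8B: taatgacttttCTACCTCAtagttcagcct

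On hg38 with the GENCODE 44 annotation, these 8mers lie at chr11:114255321-114255328 on the plus strand for ZBTB16, chr3:114319720-114319727 on the minus strand for ZBTB20, chr1:173895214-173895221 on the plus strand for ZBTB37, chr12:57001417-57001424 on the minus strand for ZBTB39 and chr1:32488391-32488398 on the plus strand for ZBTB8B. The ZBTB genes have long 3′UTRs, with a median of 3012.5 bases against 1228.5 bases for all genes with a 3′UTR, and a longer 3′UTR has more places for any 8 letters to occur. A match describes the letters of the transcript and does not show that a miRNA binds there.

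Of the 50 entries, 10 do not occur in GENCODE 44 and were at 0 in all 4 libraries. They are further entries for ZBTB12 (4), ZBTB22 (4), ZBTB4 (1) and ZBTB9 (1), whose first entries had values. The other 40 entries were 1 per gene, and 37 of them reached a mean of 1 TPM across libraries, the level required for testing, whereas ZBTB16, ZBTB32 and ZBTB7C did not. The tested members had mean levels of 1.37 to 52.0 TPM with a median of 10.8 TPM, and the median of all 16687 tested genes was 15.6 TPM. There were 7 members over 20 TPM, 23 members between 5 and 20 TPM, and 7 tested members under 5 TPM. Most members were thus of moderate level, and their replicates lay close together. The larger of the within-group differences between replicates had a median of 0.13 on log2(TPM + 1) among members and 0.19 among all tested genes. It exceeded 0.5 in 2 members, ZBTB9 and ZBTB20, and in 13.4% of all tested genes.

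**Figure D1:**
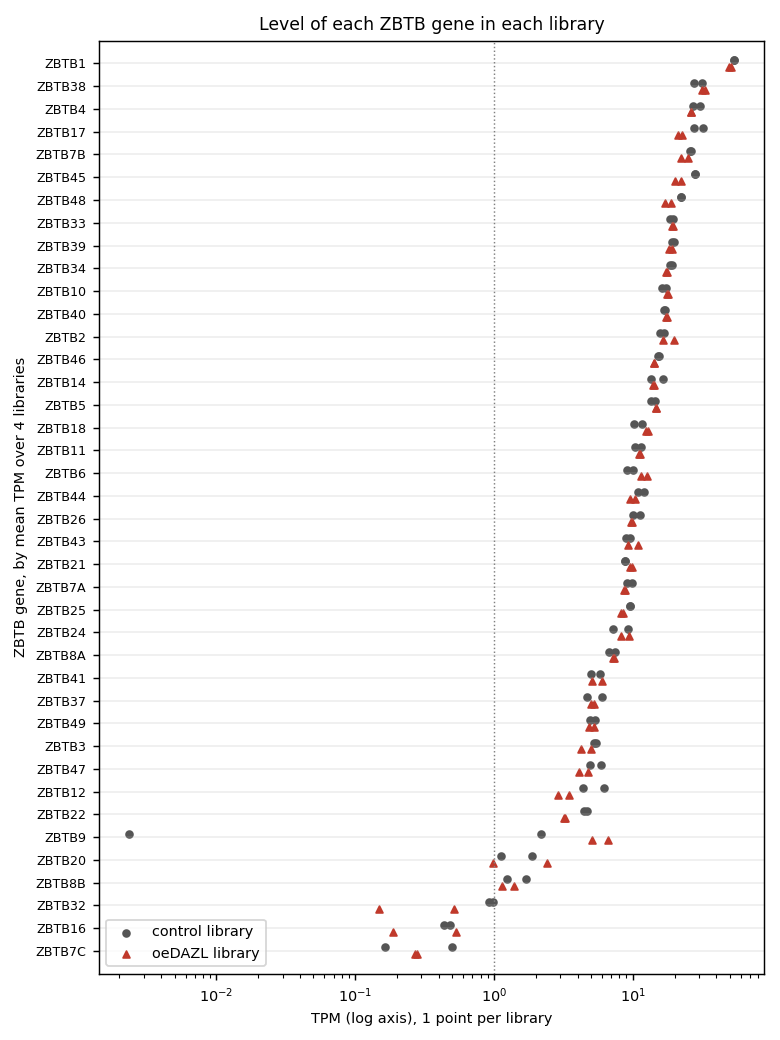
TPM on a log axis of the 40 ZBTB genes with values, ordered by mean TPM, with 1 circle per control library and 1 triangle per oeDAZL library (2 of each). The dotted line marks 1 TPM, the mean level required for testing, and the circle far to the left is ZBTB9 in control replicate 2, at 0.00236 TPM.

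The oeDAZL libraries were compared with the control libraries by limma on log2(TPM + 1) across all tested genes. A gene was called at a fold change of at least 2 with an unadjusted p of at most 0.05, the thresholds of the study. The study applied these thresholds to read counts with DESeq2, so the shares called here are not those of the study. Among the ZBTB genes, 1 of 37 was called higher and 0 were called lower, where 0.126% and 0.563% of all tested genes were called in these directions, or 0.689% in both. Without the requirement on fold change, 2 members were higher (ZBTB9 and ZBTB6) and 5 were lower (ZBTB45, ZBTB17, ZBTB48, ZBTB12 and ZBTB22). That is 7 of 37, or 18.9%, near the 20.2% of all tested genes that passed the same threshold, which comprised 5.02% higher and 15.2% lower. No member had an adjusted p under 0.05 by the Benjamini-Hochberg procedure, which 0.0599% of all tested genes had in limma, and the lowest adjusted p among members was 0.107, for ZBTB45. The other 30 members had log2 fold changes between -0.24 (ZBTB47) and 0.20 (ZBTB18). Of the 37 members, 21 (56.8%) were lower in oeDAZL and their median log2 fold change was -0.06, where 65.3% of all tested genes were lower and the median was -0.08. This balance depended on the scaling, as 15 members were lower after median-of-ratios scaling and 13 after quantile normalization. The oeDAZL libraries were both above the control libraries in 8 members and below them in 16, or 64.9% of members without overlap, and 54.4% of all tested genes had no overlap (16.0% above and 38.4% below).

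**Figure D2:**
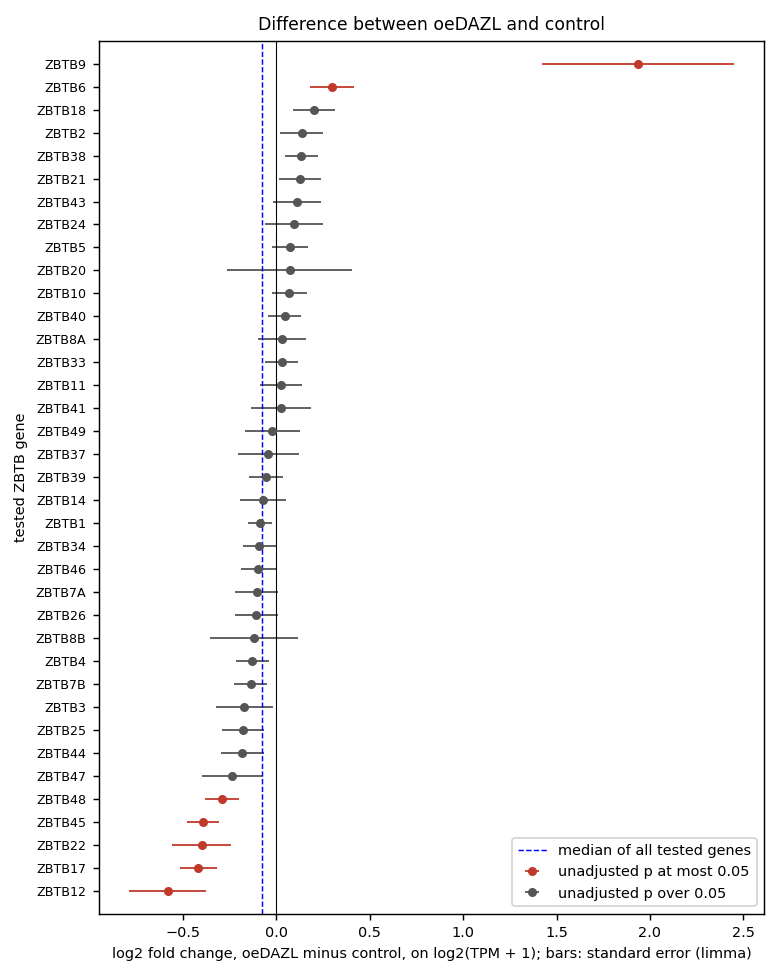
Log2 fold change of oeDAZL minus control on log2(TPM + 1) for the 37 tested ZBTB genes, with the standard error of limma as bars (2 libraries per group). ZBTB9 is at 1.94, apart from all other members, which lie between -0.58 and 0.30, and the dashed line is the median of all tested genes at -0.08.

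ZBTB9 had the largest difference of any member, and it is also the member whose control libraries differed most. It was listed at 2.17 TPM in control replicate 1 and at 0.00236 TPM in control replicate 2, against 6.62 and 5.10 TPM in the oeDAZL replicates. Both oeDAZL libraries were therefore above both control libraries, while the control libraries differed from each other by 1.66 on log2(TPM + 1). The group means were 1.09 ± 1.53 TPM in control and 5.86 ± 1.07 TPM in oeDAZL (SD, n = 2 each), a ratio of 5.39. The log2 fold change was 1.94 with a standard error of 0.52 (limma, unadjusted p = 0.00901, adjusted p = 0.139). A pseudocount of 0.1 instead of 1 moved it to 3.62 (limma, unadjusted p = 0.0334). Without control replicate 2 it was 1.10, and without control replicate 1 it was 2.77, so that the size of the difference rested on which control library was kept, and the gene was called in both cases. ZBTB9 had been singled out with earlier results of these data known. The gene occupies chr6:33453970-33457544 on the plus strand in hg38 and its canonical transcript has 2 exons. Whether the low value in control replicate 2 lies in the cells or in the assignment of reads was not tested.

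ZBTB6 was the other member that was higher at an unadjusted p of 0.05. It had 10.0 and 9.11 TPM in control and 12.6 and 11.5 TPM in oeDAZL, without overlap between the groups. Its log2 fold change was 0.30 with a standard error of 0.12 (limma, unadjusted p = 0.0419, adjusted p = 0.231). ZBTB6 lies at chr9:122908056-122913323 on the minus strand, and ZBTB26, a further member, lies 2242 bases away on the same strand. The p of ZBTB6 rose above 0.05 in 4 alternatives, which were the replicate block and the fits without control replicate 2, without oeDAZL replicate 1 and without oeDAZL replicate 2. ZBTB26 had a log2 fold change of -0.11, opposite in sign to that of ZBTB6 and with an unadjusted p of 0.387 in limma.

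The 5 members that were lower differed by less than 2-fold. ZBTB45, which is tied to glial differentiation, was at 28.1 and 28.0 TPM in control and at 20.2 and 22.1 TPM in oeDAZL, a log2 fold change of -0.39 (standard error 0.09, limma unadjusted p = 0.00354). ZBTB17 (MIZ1), the partner through which MYC represses target genes, was at 32.0 and 27.7 TPM in control and at 21.3 and 22.8 TPM in oeDAZL. Its log2 fold change was -0.42 (standard error 0.10, limma unadjusted p = 0.00546, adjusted p = 0.119). The groups did not overlap for either gene. They kept an unadjusted p of at most 0.05 in all 12 alternative settings of the analysis, and their log2 fold changes ranged from -0.45 to -0.29 for ZBTB45 and from -0.52 to -0.32 for ZBTB17.

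ZBTB48 (TZAP), which binds telomeric repeats, was at 22.2 and 22.4 TPM in control and at 18.9 and 17.2 TPM in oeDAZL, a log2 fold change of -0.29 (standard error 0.09, limma unadjusted p = 0.0183, adjusted p = 0.174). ZBTB12, which is tied to differentiation of human pluripotent cells, was at 6.24 and 4.36 TPM in control and at 2.88 and 3.46 TPM in oeDAZL. Its log2 fold change of -0.58 was the lowest among members (standard error 0.21, limma unadjusted p = 0.0291, adjusted p = 0.203), with replicates in control that differed by 0.44 on log2(TPM + 1). It no longer passed without control replicate 1, at -0.36, or without oeDAZL replicate 1, at -0.48. ZBTB22 was at 4.43 and 4.71 TPM in control and at 3.18 and 3.26 TPM in oeDAZL, a log2 fold change of -0.40 (standard error 0.16, limma unadjusted p = 0.0441, adjusted p = 0.235). All 3 genes had oeDAZL libraries below the control libraries. ZBTB48 lost its call at an unadjusted p of 0.05 in 3 alternatives, ZBTB12 in 4 and ZBTB22 in 9.

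**Figure D3:**
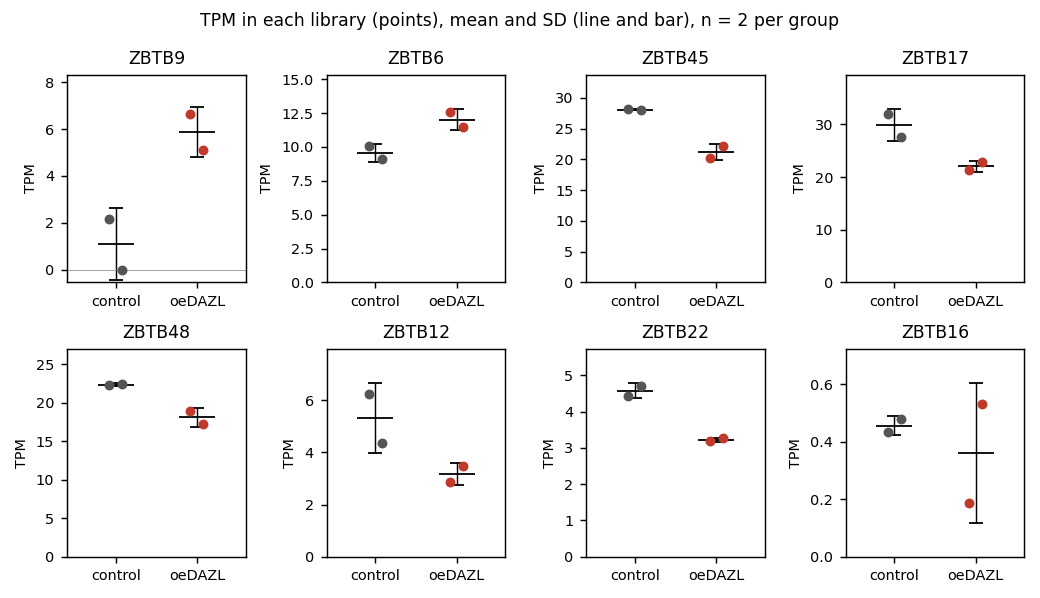
TPM in each library (points, 2 control and 2 oeDAZL) with the mean and the SD, for ZBTB16 and the 7 ZBTB genes with an unadjusted p of at most 0.05. The control points of ZBTB9 lie at 2.17 and 0.00236 TPM, so that its SD of 1.53 TPM reaches below 0, and ZBTB16 stays under 0.6 TPM in all 4 libraries.

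**Figure D4:**
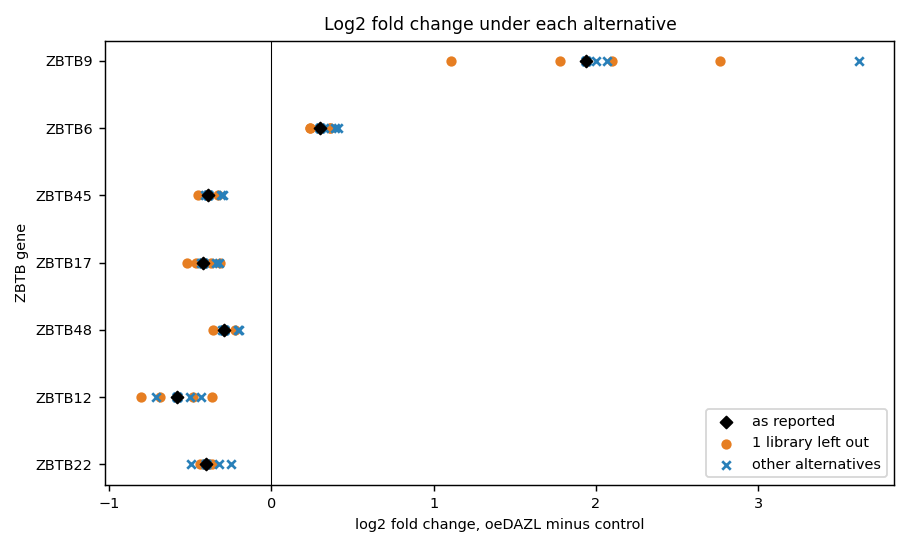
Log2 fold change of oeDAZL minus control for the 7 ZBTB genes with an unadjusted p of at most 0.05, as reported (diamonds), with 1 library left out (circles) and under the other alternative settings (crosses). The sign of each gene is the same in every setting shown, and ZBTB9 spans 1.10 to 3.62.

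ZBTB9, ZBTB12 and ZBTB22 are 3 of the 5 members on chromosome 6. The same 3 genes have further entries at 0 TPM in every library, and the study kept only uniquely mapped reads. Whether the further entries affected the values of these genes was not tested. ZBTB12 (chr6:31899613-31902086) and ZBTB22 (chr6:33314406-33317942) are on the minus strand, and ZBTB9 is on the plus strand. The genes close to ZBTB22 gave no call. TAPBP, 121 bases away, had a log2 fold change of -0.33 (limma unadjusted p = 0.0995), and DAXX, 615 bases away, had -0.05 (limma unadjusted p = 0.684). C2, which overlaps ZBTB12 on the other strand, did not exceed 0.110 TPM in any library. Strand was not stated for the counting, so reads of overlapping genes on opposite strands cannot be told apart.

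ZBTB16 encodes PLZF, which is also induced by glucocorticoid in many cell types. It was listed at 0.434 and 0.479 TPM in control and at 0.187 and 0.532 TPM in oeDAZL, below the level for testing. The groups overlapped, and the oeDAZL libraries lay on either side of the control libraries. The difference of the group means on log2(TPM + 1) was -0.11, with no test. ZBTB16 lies at chr11:114059041-114256765. In a list of the glucocorticoid receptor gene NR3C1 and genes that glucocorticoid induces, 4 were tested and 1 passed an unadjusted p of 0.05, which 20.2% of all tested genes did. This was TSC22D3 (GILZ), at 15.9 and 19.8 TPM in control and 25.8 and 25.2 TPM in oeDAZL, a log2 fold change of 0.50 (limma adjusted p = 0.118), while FKBP5, KLF9 and NR3C1 had log2 fold changes between -0.04 and 0.00. The other members under the testing level were ZBTB32 and ZBTB7C. ZBTB32, a repressor of lymphocyte activation, was at 0.913 and 0.978 TPM in control and at 0.516 and 0.148 TPM in oeDAZL, without overlap. ZBTB7C was at 0.165 and 0.502 TPM in control and at 0.280 and 0.269 TPM in oeDAZL, between the control values.

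Of the 7 members over 20 TPM, ZBTB17, ZBTB45 and ZBTB48 are described above, and the other 4 had an unadjusted p over 0.05 in limma. ZBTB1, needed for lymphoid development and tied to the response to DNA damage, was the highest of the family, at 53.5 and 53.7 TPM in control and at 49.7 and 51.3 TPM in oeDAZL. Its libraries did not overlap, but the log2 fold change was -0.09 (standard error 0.06, limma adjusted p = 0.486). ZBTB38, which binds methylated DNA, was at 27.8 and 31.3 TPM in control and at 31.7 and 33.2 TPM in oeDAZL, a log2 fold change of 0.13 (standard error 0.09). ZBTB4, a further reader of methylated DNA, was at 27.2 and 30.5 TPM in control and at 26.2 TPM in both oeDAZL libraries, a log2 fold change of -0.13 (standard error 0.09). ZBTB7B (ThPOK), which directs T cells to the helper lineage, was at 26.4 and 25.9 TPM in control and at 22.4 and 25.0 TPM in oeDAZL, a log2 fold change of -0.14 (standard error 0.09). After ZBTB1, the order of these members and of ZBTB17 and ZBTB45 was not separated by their spread, since the mean levels ran from 31.0 to 24.6 TPM and their libraries overlapped along that order.

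Besides ZBTB9 and ZBTB12, the members whose replicates lay farthest apart were ZBTB20, ZBTB24 and ZBTB37. ZBTB20, a repressor of alpha-fetoprotein in liver and a factor of hippocampal development, was at 1.12 and 1.88 TPM in control and at 2.42 and 0.976 TPM in oeDAZL. The oeDAZL libraries enclosed the control libraries, and the log2 fold change of 0.07 had a standard error of 0.33 and turned to -0.15 without control replicate 1 and to -0.32 without oeDAZL replicate 1. ZBTB24, whose loss causes an immunodeficiency with hypomethylated pericentromeric DNA, was at 7.17 and 9.27 TPM in control and at 8.28 and 9.34 TPM in oeDAZL. ZBTB37 was at 5.96 and 4.66 TPM in control and at 4.97 and 5.23 TPM in oeDAZL. The groups overlapped for both genes, with log2 fold changes of 0.10 (standard error 0.16) for ZBTB24 and -0.04 (standard error 0.17) for ZBTB37.

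Grouped by role, each of 6 lists of members held at most 1 gene with an unadjusted p of at most 0.05, which 20.2% of all tested genes had (15.2% lower). Of 10 members with roles in blood and immune cells, 8 were tested, of which 1 was lower at an unadjusted p of 0.05 (ZBTB17) and 0 were higher, with a median log2 fold change of -0.10. The 3 readers of methylated DNA, ZBTB4, ZBTB33 (Kaiso) and ZBTB38, had 0 with an unadjusted p of at most 0.05 and a median of 0.03. Of 4 members tied to telomeres, pericentromeric methylation or DNA damage, 1 was lower (ZBTB48), and the median was -0.01. ZBTB10, which binds variant telomeric repeats, was at 16.3 and 17.5 TPM in control and at 17.6 and 18.0 TPM in oeDAZL. Among 6 members tied to the p53 pathway, CDKN1A or MYC, 1 was lower (ZBTB17), with a median of -0.06. Within that list ZBTB2 and ZBTB5, repressors of CDKN1A, had log2 fold changes of 0.14 and 0.07, and ZBTB49, an activator of CDKN1A, had -0.02. Of 3 tested members tied to neural or muscle development 1 was lower (ZBTB45). ZBTB18, a repressor in neuronal differentiation, had the highest log2 fold change of the members with an unadjusted p over 0.05 (limma), at 0.20. It was at 11.6 and 10.2 TPM in control and 12.9 and 12.4 TPM in oeDAZL. Of 2 tested members tied to germ cells or pluripotent cells, ZBTB12 was lower, and ZBTB43, which acts in mouse male germ cells, was at 8.92 and 9.56 TPM in control and 10.9 and 9.25 TPM in oeDAZL, with overlap.

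The partners of these proteins and the related genes under other names were counted in the same way. Of 8 BTB zinc finger genes with other names, 7 were tested and 0 had an unadjusted p of at most 0.05, with a median log2 fold change of -0.09. BCL6, which controls germinal centre B cells, was at 18.1 and 22.4 TPM in control and at 18.6 and 19.0 TPM in oeDAZL. HIC2 was at 60.6 to 67.0 TPM and PATZ1 at 47.0 to 61.6 TPM over the 4 libraries, with log2 fold changes of 0.04 and -0.20. Of 17 corepressor and CUL3 genes, all of which were tested, 3 were lower and 0 were higher at an unadjusted p of 0.05, where 15.2% of all tested genes were lower and 5.02% higher, and the median was -0.08, as over all tested genes. The 3 genes were HDAC7, HDAC4 and TBL1X. HDAC7, a class IIa deacetylase, was at 91.9 and 85.5 TPM in control and at 67.9 and 70.2 TPM in oeDAZL, a log2 fold change of -0.36 (limma adjusted p = 0.0898). HDAC4, of the same class, had a log2 fold change of -0.44 (limma adjusted p = 0.162), and TBL1X, a subunit of the NCOR complexes, had -0.46 (limma adjusted p = 0.116). NCOR1, BCOR and CUL3, direct partners of BTB domains, had log2 fold changes of -0.02, 0.24 and 0.03, with unadjusted p over 0.05 in limma for each.

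The members with a let-7 8mer lay within the range of those without. Of the 5, 4 were tested, with log2 fold changes from -0.12 to 0.07 and a median of -0.05, and 3 of them were lower. The 33 tested members without an 8mer had a median of -0.07, and 18 were lower. ZBTB39, the most abundant member with a site, was at 19.9 and 19.1 TPM in control and at 19.3 and 18.2 TPM in oeDAZL, with overlap. With 7mer sites counted as well, 12 of 40 members (30.0%) and 17.0% of all genes with a 3′UTR had a site.

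The members also varied with GC content, a feature that the rule did not use. Across the 37 tested members, Spearman's rho between the GC content of the canonical transcript and the log2 fold change was -0.50, and -0.55 without ZBTB9. Across 16609 tested genes it was -0.19. These are correlations across genes, which share the same 4 libraries and are not independent replicates. Of the 13 members with a GC content of at least 50%, 11 were lower in oeDAZL (84.6%). Of these 13, 6 had an unadjusted p of at most 0.05 in limma, 5 of them lower and 1, ZBTB9, higher. Of the 24 members under 50%, 10 were lower (41.7%) and 1 passed, ZBTB6, which was higher. Among all tested genes, 72.5% of those at or over 50% were lower and 24.8% passed, against 59.1% and 16.3% of those under 50%. The level of 50% was chosen after the values were seen. With a split at the median of the members, 43.38%, 14 of 19 members at or above it were lower, and 7 of 18 below it. Over all tested genes the same split gave 69.1% and 56.5% lower. The 5 lower members had GC contents of 60.0% (ZBTB48), 60.3% (ZBTB22), 62.1% (ZBTB17), 64.1% (ZBTB12) and 65.8% (ZBTB45), and 3′UTRs of 68 to 606 bases. Spearman's rho between 3′UTR length and log2 fold change was 0.29 across the members. It was 0.04 across the 13047 tested genes with a 3′UTR. ZBTB6 had a GC content of 35.0% and a 3′UTR of 2742 bases, and ZBTB9 had 52.7% and 1022 bases. Whether base composition has a part in these differences was not tested.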

How the data were processed

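The authors deposited 1 table of TPM per gene, with 1 column for each of the 2 control and 2 oeDAZL libraries. The submitters' processing notes name Trim Galore 0.6.4, HISAT2 2.1.0 and StringTie 2.1.4 on hg38. The annotation release is not given in the sources used here. TPM does not preserve read depth, which is therefore unknown here, and the precision of a value rests on the replicates.

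Of 65003 entries, 45 chromosome Y copies of pseudoautosomal genes and 18 repeated entries were left out. The deposited TPM values were transformed to log2(TPM + 1), and 16687 genes that averaged 1 TPM or more entered a fit by limma 3.58.1 under R 4.3.3 (eBayes with a trend, no covariates), after the procedure had been tested on simulated data. A fold change on this scale understates the change of low genes. Adjusted p-values are Benjamini-Hochberg values over all tested genes. An exact permutation test of 2 against 2 libraries cannot reach 0.05. Gene positions, 3′UTRs and GC content were taken from GENCODE 44 on hg38, and 8mers were searched in the longest 3′UTR.

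Values in each library were given for ZBTB9, ZBTB16 and every member with an unadjusted p of at most 0.05 (limma). They were also given for the 5 members with the highest mean TPM, the 5 with the largest replicate difference and some genes of other lists that passed the same p. Overlapping genes outside the family were not given in each library. Some of them, such as genes over ZBTB24 and ZBTB37, had higher levels than the member. Whether their reads entered the values of members was not tested. Other values given are examples. A few genes that this rule or the lists cover are not reported here. Members and lists were chosen with earlier results of these data known. Alternatives were a pseudocount of 0.1, no filter, a mean TPM of at least 5, median-of-ratios scaling, quantile normalization, a replicate block, no limma trend, adjusted p, 7mer sites, and each library left out. Replicate numbers come from the sample titles and nothing ties same-numbered libraries to each other.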

Additional observations from a re-analysis of the deposited data

How the results depend on the processing

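ZBTB17 and ZBTB45 kept their direction and an unadjusted p of at most 0.05 (limma) in all 12 alternatives, and ZBTB9 in the 11 in which it was fitted. With a mean TPM of at least 5, 30 members were fitted, and ZBTB9, ZBTB12 and ZBTB22 were among those left out. Of the 30, 0 were called higher, and 1 was higher and 3 were lower at an unadjusted p of 0.05 (limma). That threshold was passed by 2761 of 11933 genes, and 6 and 23 of all genes were called higher and lower. The 3 lower members were ZBTB45, ZBTB17 and ZBTB48. With an adjusted p, 0 members were called. With a pseudocount of 0.1, ZBTB9 was at 3.62 in place of 1.94, and 55 and 267 genes were called higher and lower. Median-of-ratios scaling gave 3 higher and 3 lower members, in place of 2 and 5, at an unadjusted p of 0.05 (limma). At that threshold 3242 of 16687 genes passed, in place of 3368. The median of the members moved to 0.041, that of the corepressor and CUL3 list to 0.016 and that of all genes from -0.08 to 0.01. ZBTB1 moved to 0.014 and ZBTB37 to 0.043. Quantile normalization gave 3 higher and 2 lower members at that threshold, which 2916 genes passed. It gave a median of 0.047 over the members, 41 and 52 called genes, and ZBTB37 at 0.087. Under these scalings 47.7% and 48.7% of all genes were lower, in place of 65.3%. The cause was not tested. With 7mer sites, 12 members had a let-7 site. With each library left out in turn, 1 to 2 members were higher and 3 to 4 lower at an unadjusted p of 0.05, 35 to 87 genes were called higher and 85 to 235 lower, of which 87 and 235 came without control replicate 2. In these fits the lone library was assumed to vary like the others, and ZBTB20 ranged from -0.32 to 0.47 (-0.15 and -0.32 where reversed), ZBTB24 from -0.069 to 0.26 and ZBTB37 from -0.19 to 0.11. With the replicate block, 1 member was called, and 1 was higher and 4 were lower at an unadjusted p of 0.05 (limma). In that fit 2772 genes passed this threshold, and 26 and 99 genes were called. Same-numbered libraries deviated with r = -0.10 over 16687 genes, so the numbers gave no pairing, and with crossed numbers, added after seeing the data, 28 and 107 genes were called. The unknown depth limits every value near 0 TPM, ZBTB9 in control replicate 2 included.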
